A study of Rattus norvegicus with 6 samples.

Results

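The genes of the phase II conjugating enzymes were examined in rat liver tissue from a hepatocellular carcinoma study. Members were the rows of the expression table whose symbol begins with Ugt1 to Ugt3, Sult1 to Sult6, Gsta, Gstm, Gstp, Gstt, Gstk, Gsto, Gstz or Mgst1 to Mgst3 and that held at least 1 read in any library. Of 32623 genes in the table, 43 symbols matched and 42 had a read (Gstm6l had none). The members comprised 21 cytosolic and mitochondrial glutathione S-transferase (GST) genes, 3 microsomal GST genes, 12 sulfotransferase genes and 6 UDP-glucuronosyltransferase genes.

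RNA was sequenced in 2 groups of 3 libraries, all from liver of Rattus norvegicus. The HCC group was the control and received no treatment, and the TAE group underwent transarterial embolization, in which arteries feeding a liver tumour are blocked. Strain, age, the way tumours were raised, the embolic material, the time of sampling and the proportion of tumour in each piece of tissue are not given in the labels, so neither group can be read here as pure tumour or pure liver. Each library is labelled as a separate biosample, without a statement that each came from its own animal. The p-values therefore reflect sample-to-sample spread only, and that spread may be technical.

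Phase II enzymes attach a polar group to drugs, carcinogens, steroids and bilirubin so that the products can leave the cell and be excreted. GSTs attach glutathione to electrophiles, UDP-glucuronosyltransferases attach glucuronic acid, and sulfotransferases attach sulfate. Hepatocytes are the main site of all these reactions, with alpha and mu class GSTs abundant in normal rat hepatocytes. Gstp1, the pi class GST, is scarce in normal rat hepatocytes, is expressed in bile duct cells, and is the classical marker of preneoplastic foci in rat liver.

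The promoters of 3 members are shown because the values below turn on them: Gstm1, the mu class gene that fell with the smallest p of the members, Gstm7, its neighbour, and Gstp1. Each is the RefSeq sequence of 250 bases before to 50 after the start of the gene on assembly GRCr8, written 5′ to 3′ on the minus strand of the chromosome, the strand of the gene. Capitals mark a match to the core of the antioxidant response element, TGACNNNGC, which NRF2 binds with small MAF proteins, or to the AP-1 site, TGANTCA. They lie at chr2:198343334-198343633 for Gstm1, chr2:198260270-198260569 for Gstm7 and chr1:210769656-210769955 for Gstp1.
Gstm1: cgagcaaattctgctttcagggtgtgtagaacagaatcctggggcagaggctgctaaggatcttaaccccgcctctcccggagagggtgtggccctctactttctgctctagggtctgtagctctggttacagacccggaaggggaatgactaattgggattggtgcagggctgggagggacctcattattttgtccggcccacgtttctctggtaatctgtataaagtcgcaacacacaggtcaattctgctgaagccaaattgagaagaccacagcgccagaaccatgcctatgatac
Gstm7: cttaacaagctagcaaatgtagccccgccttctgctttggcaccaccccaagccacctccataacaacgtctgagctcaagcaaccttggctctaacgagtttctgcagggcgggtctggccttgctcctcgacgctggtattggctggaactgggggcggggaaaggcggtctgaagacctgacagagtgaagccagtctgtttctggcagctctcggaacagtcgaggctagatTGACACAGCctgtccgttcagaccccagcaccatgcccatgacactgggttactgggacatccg
Gstp1: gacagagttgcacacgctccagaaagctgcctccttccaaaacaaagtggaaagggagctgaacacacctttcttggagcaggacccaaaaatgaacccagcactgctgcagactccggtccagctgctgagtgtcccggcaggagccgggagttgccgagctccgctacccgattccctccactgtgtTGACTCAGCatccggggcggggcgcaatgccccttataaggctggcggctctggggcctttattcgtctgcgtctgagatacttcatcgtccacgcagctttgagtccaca

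The Gstp1 promoter holds TGACTCAGC, 61 bases before the start, where the AP-1 letters lie within the antioxidant element letters. The Gstm7 promoter holds TGACACAGC at 14 bases before the start, and the Gstm1 promoter holds neither motif in this window. A RefSeq promoter was found for 36 of the 42 members, of which 34 had a single one (Gstm3l had no entry). With both strands searched, 6 of these 34 held the antioxidant element core, against 12.1% of 33365 distinct promoters of the same length, and they were Gsta1, Gsta2, Gstm5, Gstm7, Gstp1 and Gstz1. The AP-1 letters were in 4 of 34, against 7.34%, and the letters of an HNF1 recognition arm, GTTAAT, in 4 of 34, against 7.46%. A match describes letters only.

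In TAE, 2 of the 35 members tested were lower and 0 were higher, and both that fell were mu class GSTs, Gstm1 and Gstm3l (edgeR's quasi-likelihood test, Benjamini-Hochberg adjusted p under 0.05 over 14499 genes). The background in that fit was 0.310% of genes called lower (45 genes) and 2.70% called higher (392 genes). By sign alone, 32 of 35 members had a negative log2 change, beside 7704 of the 14499 genes. The median change of the members was -0.47, beside -0.03 over all genes tested. An unadjusted p under 0.05 was reached by 10 of the 35 members, beside 3296 of the 14499 genes. The 3 TAE libraries all lay below the 3 HCC libraries for 9 members, against 13.4% of all genes, and all above for 0, against 18.6%. DESeq2 called 8 members lower, with 1.68% of its genes called lower: Gsta2, Gsta5, Gstm1, Gstm3l, Gstm7, Mgst3, Sult1e1 and Ugt2b15.

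The calls depended on single libraries. Without TAE 3, edgeR called 18 members lower, against 3.51% of genes, and without TAE 2 it called 7 lower, against 9.56%. Without any 1 of HCC 1, HCC 2, HCC 3 or TAE 1, it called no member in either direction. Each of those fits called only 0 or 1 gene of all tested, so their calls cannot show whether the members differed from the background. The 7 members too low to test had 1 to 47 reads in all 6 libraries together: Gsto2 47, Sult1c2 37, Gstm6 30, Sult4a1 25, Sult1d1 8, Gstt4 4 and Ugt3a2 1.

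**Figure D1:**
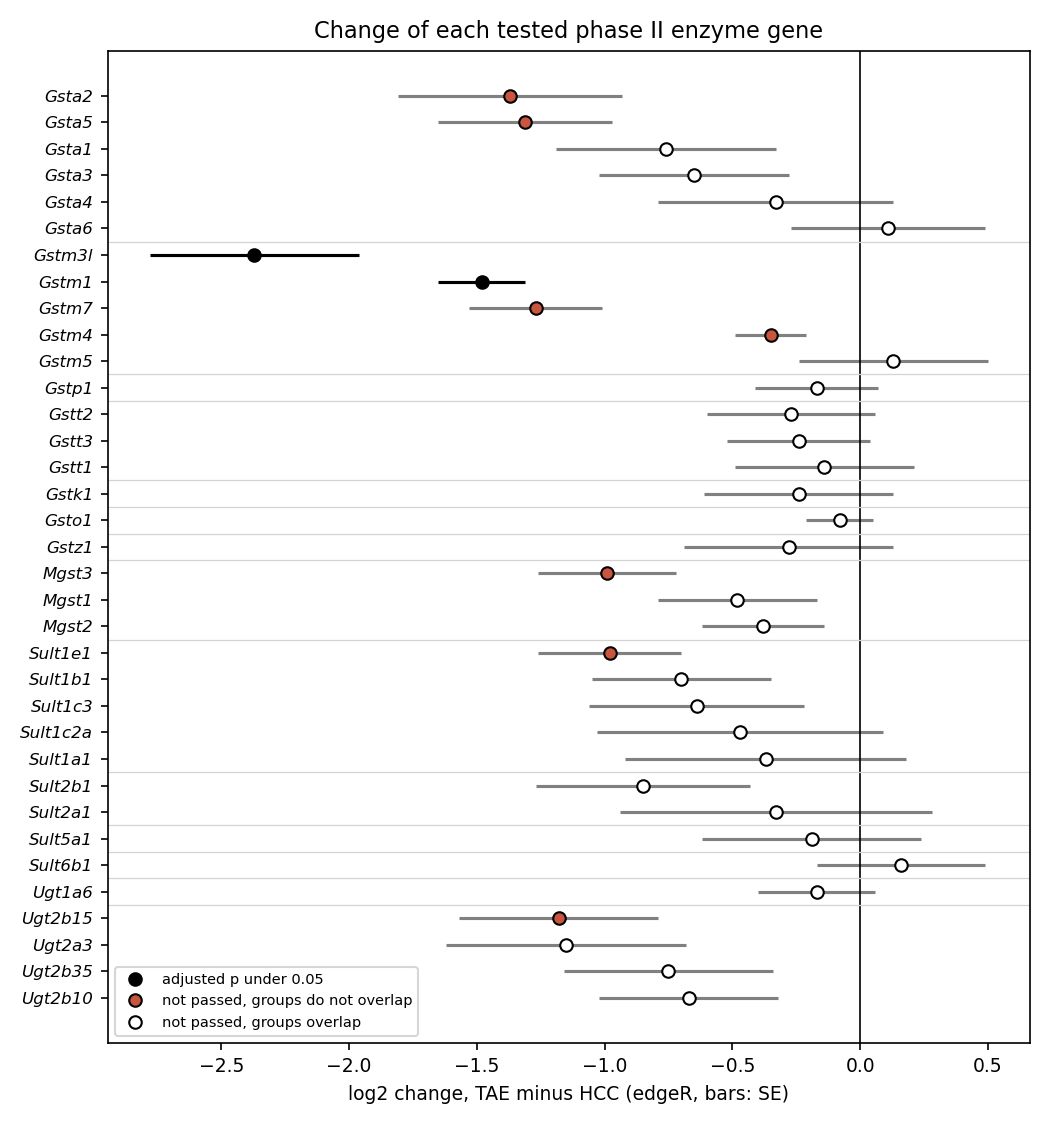
Log2 change from HCC to TAE for each of the 35 members tested, grouped by family, with bars for the SE of edgeR's fit (3 libraries per group). Black points passed the adjusted p threshold of 0.05, red points did not pass but had groups that do not overlap, and white points had groups that overlap. Gstm1 and Gstm3l are the only black points, and 32 of the 35 points lie left of 0.

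The mu class held the steepest falls. Gstm1, a major GST of rat hepatocytes, lies on chromosome 2 from 210803869 to 210809306 in the table's coordinates and was the most abundant mu class gene. Its FPKM (the count scaled to exon length and to the library's total) was 608, 515 and 627 in HCC 1 to 3 and 193, 228 and 225 in TAE 1 to 3. Each TAE library thus lay below every HCC library by a wide gap, and the TAE libraries lay close together. The mean was 583 ± 59.7 FPKM in HCC and 215 ± 19.4 in TAE (SD, n = 3 each), a log2 change of -1.48 ± 0.17 (SE, edgeR adjusted p = 0.0388). The adjusted p over the edgeR fits that each left out 1 HCC library or TAE 1 was 0.142 to 0.223, with log2 changes of -1.55 to -1.39.

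Gstm3l, a mu class gene named as similar to Gstm3, lies at 210761729 to 210766501 on the same chromosome. It was at 51.6, 19.9 and 41.0 FPKM in HCC 1 to 3 and 8.58, 10.5 and 4.03 in TAE 1 to 3. HCC 2 was the lowest control and still lay above all TAE libraries. The log2 change was -2.37 ± 0.41 (edgeR adjusted p = 0.0406), the largest fall of any tested member. Its call was lost, as that of Gstm1 was, in the edgeR fits that each left out 1 HCC library or TAE 1 (adjusted p = 0.142 to 0.223, log2 changes -2.66 to -2.10). Those fits called 0 or 1 gene in all, and Gstm1 and Gstm3l had equal adjusted p in each, so the loss was not particular to them. The call of Gstm3l was also lost in limma on log2(FPKM + 1) without a filter on low values (adjusted p = 0.077).

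Gstm7, another mu class transferase, was at 92.0, 96.5 and 106 FPKM in HCC 1 to 3 and 43.8, 29.9 and 49.8 in TAE 1 to 3. The groups did not overlap, and the log2 change of -1.27 ± 0.26 just missed the threshold (edgeR adjusted p = 0.0504, and 0.0496 with median-of-ratios scaling). The span of Gstm7 in the table contains Gstm3l and Gstm6 on the same strand, so reads of these rows could be divided between them in counting. Gstm4 had groups that did not overlap at a smaller difference, 18.8 ± 1.49 FPKM in HCC and 15.3 ± 0.645 in TAE (SD, n = 3 each), with a log2 change of -0.35 ± 0.14 (edgeR adjusted p = 0.198). Gstm5 was low, at 2.83 to 5.02 FPKM in HCC and 2.33 to 6.24 in TAE, and its groups overlapped. Summed over the class, mu FPKM was 772, 655 and 800 in HCC 1 to 3 and 267, 290 and 296 in TAE 1 to 3.

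**Figure D2:**
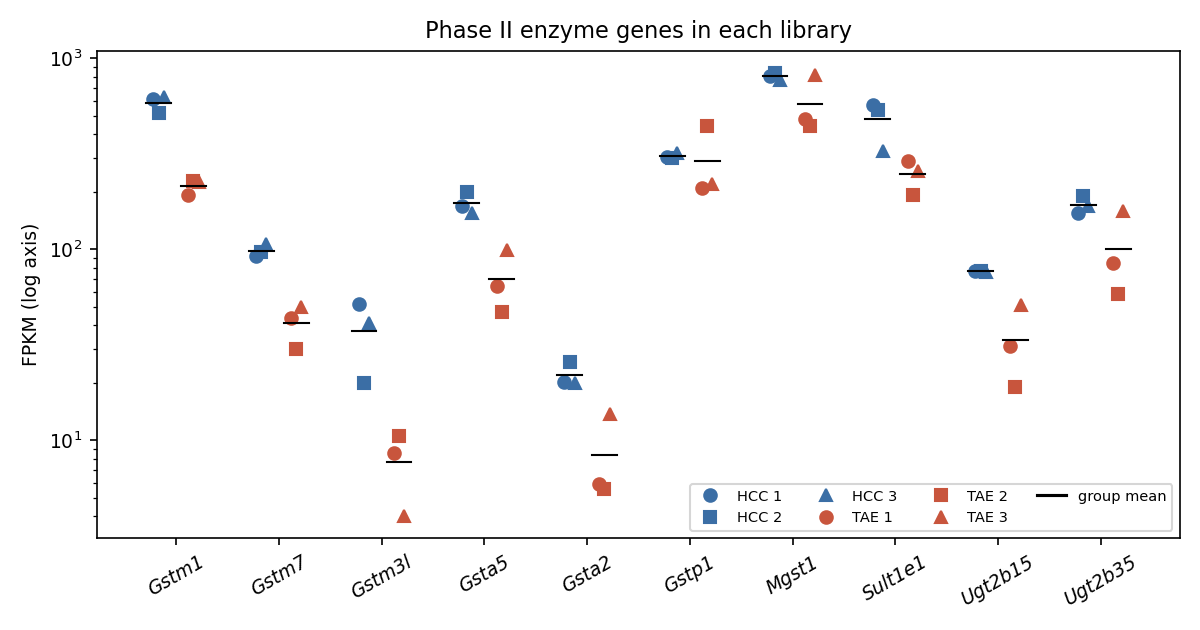
FPKM on a log axis in each of the 6 libraries for 10 members, with blue points for HCC, red points for TAE, marker shape for the replicate number and a black line for the group mean. For Gstm1 the TAE points sit at 193 to 228 and the HCC points at 515 to 627, while for Gstp1 the TAE 2 point, at 440, lies above all HCC points.

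The alpha class, whose enzymes also reduce lipid hydroperoxides, held no member that passed the edgeR threshold among 6 tested, and its median log2 change was -0.71. Gsta5, the alpha gene with the highest mean FPKM over the 6 libraries, was at 169, 199 and 155 FPKM in HCC 1 to 3 and 64.1, 47.0 and 99.5 in TAE 1 to 3. The groups did not overlap, with a log2 change of -1.31 ± 0.34 (edgeR adjusted p = 0.0825, DESeq2 adjusted p = 0.00387). Gsta2 was lower in level but similarly arranged, at 20.1, 25.6 and 20.0 FPKM in HCC 1 to 3 and 5.90, 5.56 and 13.8 in TAE 1 to 3. Its log2 change was -1.37 ± 0.44 (edgeR adjusted p = 0.13, DESeq2 adjusted p = 0.0230). For both genes TAE 3 was the highest TAE library.

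Gsta1 had overlapping groups because TAE 3 reached the controls: 152, 116 and 140 FPKM in HCC 1 to 3 and 60.0, 47.9 and 130 in TAE 1 to 3. Gsta3, which lies within the span of Gsta1 on the other strand, Gsta4 and Gsta6 ranged in log2 change from -0.65 to 0.11. Summed alpha FPKM was 383, 388 and 354 in HCC 1 to 3 and 159, 120 and 297 in TAE 1 to 3. The alpha sum of TAE 3 thus lay nearer to the controls than to the other TAE libraries, whereas the mu sum of TAE 3 lay close to theirs.

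Gstp1 (chromosome 1, 219291679 to 219294147) was expressed at levels between those of the mu and alpha leaders in every HCC library. It was at 304, 301 and 320 FPKM in HCC 1 to 3 and 210, 440 and 219 in TAE 1 to 3. TAE 2 was the highest of all 6 libraries and the other TAE libraries were the lowest, so the groups overlapped. The mean was 308 ± 10.1 FPKM in HCC and 290 ± 130 in TAE (SD, n = 3 each), with a log2 change of -0.17 ± 0.24 (edgeR adjusted p = 0.677). Without TAE 2 the change was -0.49 and passed (edgeR adjusted p = 0.0416), and without TAE 1 it was 0.02.

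The balance of the 3 classes was compared as the Gstp1 share of summed alpha, mu and pi FPKM, a ratio that scaling between libraries does not alter. It was 20.8%, 22.4% and 21.7% in HCC 1 to 3 and 33.1%, 51.7% and 27.0% in TAE 1 to 3. Every TAE library lay above every HCC library. The mean was 21.6% ± 0.78 in HCC and 37.3% ± 12.9 in TAE (SD, n = 3 each), a difference of 15.6 percentage points, for which the exact two-sided permutation test gave p = 0.1, the smallest that 3 against 3 allows. Without TAE 2 the difference was 8.38 points. The mu share was 52.0% ± 2.88 in HCC and 37.5% ± 4.03 in TAE (SD, n = 3 each), without overlap, whereas the alpha share overlapped, at 24.0% to 28.9% in HCC and 14.1% to 36.6% in TAE. Since Gstp1 itself did not pass the test and Gstm1 fell, a higher share here is no measure of more Gstp1 transcript.

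**Figure D3:**
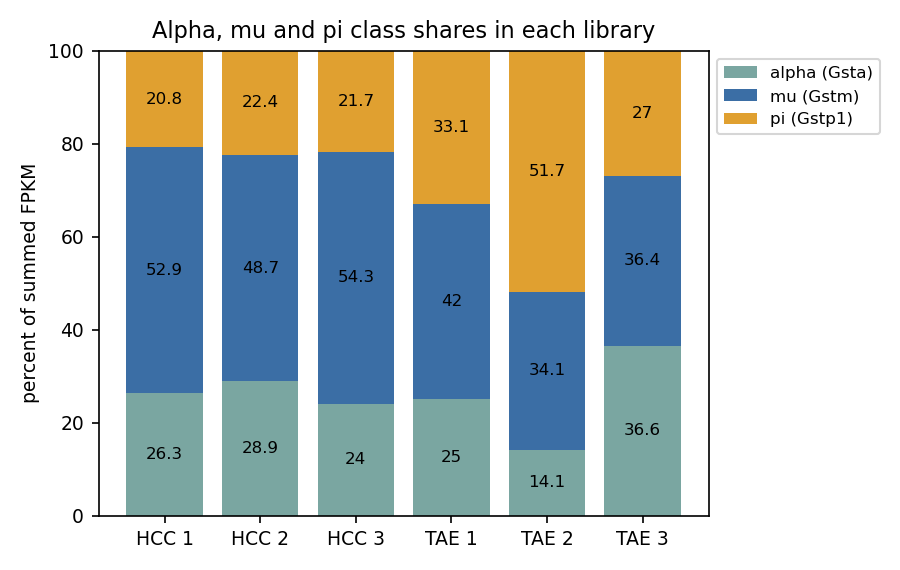
Stacked bars of the percent of summed FPKM held by alpha, mu and pi class GST genes in each of the 6 libraries, with the value of each segment printed in it. The pi segment is 20.8% to 22.4% in HCC and 27.0% to 51.7% in TAE.

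Microsomal GSTs are membrane proteins, and Mgst1 had the highest mean FPKM of all 42 members. It was at 805, 837 and 764 FPKM in HCC 1 to 3 and 478, 439 and 814 in TAE 1 to 3. TAE 3 lay within the range of the controls and the other TAE libraries well below it, with a log2 change of -0.48 ± 0.31 over all (edgeR adjusted p = 0.377, and 0.0142 without TAE 3). Mgst3 had groups that did not overlap, at 25.8, 29.1 and 27.2 FPKM in HCC 1 to 3 and 14.4, 10.3 and 17.1 in TAE 1 to 3, with a log2 change of -0.99 ± 0.27 (edgeR adjusted p = 0.0965). Mgst2, which can make leukotriene C4, was highest in TAE 2, as Gstp1 was, at 90.2, 168 and 72.3 FPKM in TAE 1 to 3 beside 131, 137 and 137 in HCC 1 to 3.

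Of the theta, kappa, omega and zeta classes, no member passed the test, and log2 changes ranged from -0.28 to -0.08. Gsto1, an omega class enzyme that reduces dehydroascorbate, was the most even, at 67.8 ± 2.57 FPKM in HCC and 66.3 ± 2.03 in TAE (SD, n = 3 each), a log2 change of -0.08 ± 0.13. Gstz1, the maleylacetoacetate isomerase of tyrosine breakdown, was at 70.6 to 72.3 FPKM in HCC and 48.0, 33.8 and 92.8 in TAE 1 to 3, on both sides of the controls. Gstt3, of the theta class, was at 39.4 ± 1.47 FPKM in HCC and 33.6 ± 10.3 in TAE (SD, n = 3 each). Gstk1, of the kappa class in mitochondria and peroxisomes, was at 33.4 ± 2.78 and 28.2 ± 12.8 FPKM (SD, n = 3 each).

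No sulfotransferase passed the edgeR test among 9 tested, and 8 of them had a negative log2 change, with a median of -0.47. Sult1e1, the estrogen sulfotransferase, was the most abundant, at 568, 537 and 328 FPKM in HCC 1 to 3 and 290, 192 and 258 in TAE 1 to 3. Its groups did not overlap, although HCC 3 lay nearer to TAE 1 than to the other controls. The log2 change was -0.98 ± 0.28 (edgeR adjusted p = 0.0999, DESeq2 adjusted p = 0.0127). Sult1a1, a phenol sulfotransferase, spanned a wider range in TAE than in HCC, at 97.0, 122 and 107 FPKM in HCC 1 to 3 and 49.3, 41.9 and 155 in TAE 1 to 3. Sult2a1, which sulfates hydroxysteroids and bile acids, had the same arrangement, at 24.0, 42.9 and 27.4 FPKM in HCC 1 to 3 and 17.1, 9.57 and 46.1 in TAE 1 to 3. In both, TAE 3 was the highest of the 6 libraries and TAE 2 the lowest. Sult5a1 and Sult6b1 stayed under 4 FPKM in every library.

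No UDP-glucuronosyltransferase passed the edgeR test among 5 tested, and all 5 log2 changes were negative. Ugt2b35, of the Ugt2b group that acts on steroids and bile acids, had the highest mean FPKM of the family. It was at 154, 190 and 168 FPKM in HCC 1 to 3 and 84.9, 58.5 and 158 in TAE 1 to 3, with a log2 change of -0.75 ± 0.41 (edgeR adjusted p = 0.307). Ugt2b15 was even among the controls and lower in each TAE library, at 77.2, 77.4 and 75.9 FPKM in HCC 1 to 3 and 31.3, 19.0 and 50.9 in TAE 1 to 3. Its log2 change was -1.18 ± 0.39 (edgeR adjusted p = 0.145, DESeq2 adjusted p = 0.0310). Ugt2a3, at 1.59 ± 0.761 FPKM in TAE and 3.52 ± 1.34 in HCC (SD, n = 3 each), has a span that contains Ugt2b15 and Ugt2b35 on the same strand.

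Ugt1a6, which glucuronidates planar phenols, was the only member of the Ugt1 family matched. It was at 37.0, 31.8 and 33.5 FPKM in HCC 1 to 3 and 28.5, 26.0 and 37.5 in TAE 1 to 3, with overlapping groups and a log2 change of -0.17 ± 0.23 (edgeR adjusted p = 0.659). Isoforms of the Ugt1a locus share their last exons, and this row covers 9345 exonic bases, so its value may combine several Ugt1a transcripts. The median log2 change of the 4 Ugt2 members tested was -0.95.

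The members were not equally low in all TAE libraries. Relative to the HCC mean on the log2 CPM scale (counts scaled to the library's total, with TMM), the median member was at -0.82 in TAE 1, -1.32 in TAE 2 and 0.01 in TAE 3. Below all 3 HCC libraries lay 30 of 35 members in TAE 1, against 40.6% of all genes tested, and 28 in TAE 2, against 33.2%. In TAE 3, 14 of 35 lay below all HCC libraries, against 41.7% of all genes, and 13 lay above them, also against 41.7%, so the members there were near the background in both directions. Among the TAE libraries, 27 members were highest in TAE 3, against 36.9% of all genes, and 26 were lowest in TAE 2, against 42.9%. The mu class kept this order by median, at -1.25, -1.55 and -0.84 in TAE 1 to 3. In TAE 3, however, all 5 of its tested members lay below every control. The other TAE 3 medians were -0.54 for Mgst, -0.35 for Gstp1, -0.22 for alpha, 0.15 for all Sult and -0.02 for all Ugt members. Gstp1 and 2 of 3 Mgst members also lay below every control there.

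Markers of hepatocytes had the same order. The median of 19 hepatocyte markers was -0.74 in TAE 1, -1.55 in TAE 2 and 0.40 in TAE 3, with a summed FPKM of 31300 to 38200 in HCC and of 19300, 13900 and 45500 in TAE 1 to 3. In edgeR 0 of the 19 passed (2 had an unadjusted p under 0.05). Of these markers 16 had a negative log2 change, the median was -0.42, and none was at 0 in any library. Of 12 macrophage markers, 5 rose (Lyz2, Aif1, Cd68, Msr1 and Csf1r), and 3 had a negative log2 change without passing (Cd163 -0.10, Marco -0.05 and Clec4f -0.38). Summed FPKM of the 12 was 1530 to 1830 in HCC and 4000 to 5810 in TAE, and none was at 0. Lyz2 led that sum, which without it was 774 to 908 in HCC and 1210 to 2460 in TAE. Cholangiocyte markers summed to 22.6 to 63.6 FPKM in HCC and 117 to 268 in TAE, with 1 of 9 tested higher (Cftr). Spp1 led that sum, which without it was 19.4 to 22.9 in HCC and 27.0 to 59.4 in TAE, and Krt7 was at 1.22 FPKM in TAE 3, below the 3.40 to 5.87 of HCC. Stellate cell and fibroblast markers summed to 449 to 713 FPKM in HCC and 1140 to 3020 in TAE, with 1 of 9 higher (Lum). In bulk tissue, fewer cells of a type and less RNA per cell cannot be told apart, and the part of these markers in the enzyme results was not tested.

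**Figure D4:**
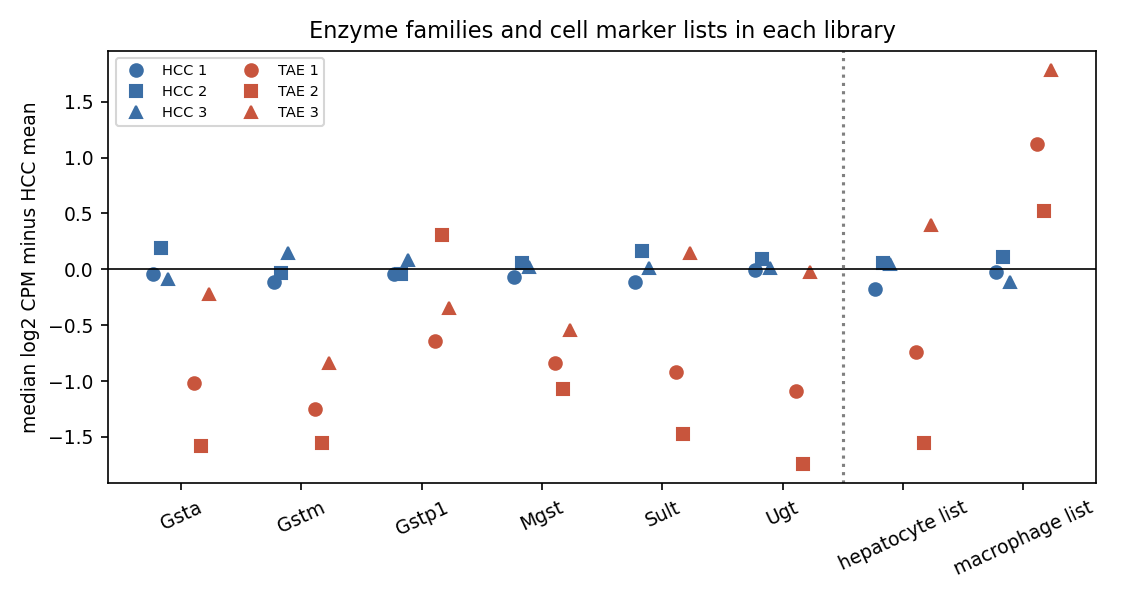
Median log2 CPM minus the HCC mean in each library for 6 enzyme families (left of the dotted line) and for the hepatocyte and macrophage marker lists (right), with blue for HCC, red for TAE and marker shape for the replicate number. In TAE 3 the hepatocyte list is at 0.40 while the mu class (Gstm) is at -0.84, and in TAE 2 both are at -1.55.

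Set beside the hepatocyte list within each library, Gstm1 was at -0.94, 0.00 and -1.63 in TAE 1 to 3 (its log2 CPM relative to the HCC mean, minus the median of the list), beside -0.24 to 0.22 in HCC. Gstm1 was thus lower than the list in TAE 1 and TAE 3 and level with it in TAE 2. For 6 of 35 members all 3 TAE libraries lay below all HCC libraries on this scale, against 0.862% of all genes tested, and they were Gsta2, Gsta5, Gstm7, Sult1c3, Ugt2b15 and Ugt2b35. The list's medians were -0.74, -1.55 and 0.40 in TAE 1 to 3, so a gene without change lies above 0 in TAE 1 and TAE 2 here. The share of all genes is therefore low by construction (13.4% without the list), and the 6 members cannot be read as an excess over it. Gstm7 was at -0.51, -0.36 and -1.23 in TAE 1 to 3, beside -0.08 to 0.08 in HCC. Gsta5 was at -0.79, -0.53 and -1.06, beside -0.19 to 0.14 in HCC. Gstp1 was at 0.10, 1.86 and -0.75, above the controls in TAE 2 and below them in TAE 3. Gsta6 was the only member of the 35 above the controls in all 3 TAE libraries on this scale, against 19.7% of all genes.

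The genes that feed and follow conjugation were read from lists of the pathway. Of 11 glutathione supply genes tested, 0 passed in edgeR, with a median log2 change of -0.41. Gclm, the modifier subunit of glutamate-cysteine ligase, was at 32.3 FPKM in HCC and 23.4 in TAE on average (log2 change -0.53, edgeR adjusted p = 0.0729), and Gss, glutathione synthetase, had a log2 change of -0.42 (edgeR adjusted p = 0.133). Of 5 genes listed for supply of UDP-glucuronate and 7 for the sulfate donor, 0 passed, with medians of -0.16 and 0.09. The UDP-glucuronate list holds Slc35 transporters whose substrates were not examined, so its median is no measure of that supply. Slc26a1, a sulfate transporter, was at 16.6 FPKM in HCC and 7.40 in TAE on average (log2 change -1.19, edgeR adjusted p = 0.0574). Bpnt1, which breaks down the spent sulfate donor, had a log2 change of -0.22 (edgeR adjusted p = 0.312). The nucleotide sugar transporter gene Slc35d1 had -0.47 (edgeR adjusted p = 0.102) and Slc35b1 had 0.17 (edgeR adjusted p = 0.384).

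Of 10 genes for cleavage of conjugates and mercapturate formation, 9 had a positive log2 change with a median of 0.39, and 0 passed. Cndp2, a cytosolic dipeptidase that splits cysteinylglycine, was at 59.3 FPKM in HCC and 105 in TAE on average (log2 change 0.79, edgeR adjusted p = 0.0516). Anpep, aminopeptidase N, was at 38.8 and 101 FPKM (log2 change 1.38, edgeR adjusted p = 0.0631). Among 13 conjugate transporters 0 passed, 10 had a negative and 3 a positive log2 change, and the median was -0.18. The smallest p belonged to Abcc5, with a log2 change of 1.11 (edgeR adjusted p = 0.0632), and Abcc2, the canalicular exporter of conjugates, with -0.92 (edgeR adjusted p = 0.0772).

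Other conjugating enzymes (16 tested, median log2 change -0.25) and the receptors and regulators of phase II genes (16 tested, median -0.20) had 0 calls in edgeR. The smallest p of the former belonged to Acsm5, an acyl-CoA synthetase, with a log2 change of -1.75 (edgeR adjusted p = 0.154), and Tpmt, thiopurine methyltransferase, with -0.23 (edgeR adjusted p = 0.296). Among the regulators the smallest p belonged to Mafk, a small MAF partner of NRF2, with a log2 change of -0.36 (edgeR adjusted p = 0.234), and Nr3c1, the glucocorticoid receptor, with -0.23 (edgeR adjusted p = 0.307). Nfe2l2, which encodes NRF2, was at 80.4 FPKM in HCC and 83.0 in TAE on average, with a log2 change of 0.00. Of 11 markers of preneoplastic foci in rat liver, a list that holds Gstp1, 2 fell. Akr7a3, an aflatoxin aldehyde reductase, was at 23.9 FPKM in HCC and 4.75 in TAE on average (log2 change -2.41, edgeR adjusted p = 0.0365). Ephx1, the microsomal epoxide hydrolase, was at 255 ± 38.8 FPKM in HCC and 121 ± 8.04 in TAE (SD, n = 3 each; log2 change -1.12 ± 0.15, edgeR adjusted p = 0.0388). These lists were chosen with earlier results of these data known, and the calls named in them come from the fit over all genes.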

How the data were processed

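Poly(A) RNA of rat liver was sequenced from strand-specific libraries, per the labels' protocols. The authors deposited 1 table holding, per the file headers, raw counts and FPKM for each gene in each library. The deposited FPKM equals the count scaled to exonic size and library total (recomputed values differed by at most 0.006 for 100% of entries). Build mRatBN7.2 is named in the submitters' processing notes, but gene ends on chromosome 1 reach 282724300, so the table's coordinates, printed unchanged, have no settled build. The aligner, the counting tool, whether it used strand and its treatment of reads shared by genes were not given in the sources used here, so members of these multigene families are uncertain as single genes, in particular the 10 that lie in 6 overlapping pairs. Total counts were 13448286 to 16604067 per library, and no pair of replicates agreed within sampling noise.

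Counts of all genes were fitted with edgeR 4.0.16 in R 4.3.3 (TMM, filterByExpr, quasi-likelihood, TAE minus HCC, two-sided, no block). The p-values of 14499 genes were adjusted by Benjamini-Hochberg and compared with 0.05. SE is the absolute log2 change divided by the square root of F, and levels per library are log2 CPM with a prior count of 2. The Gstp1 share was tested by an exact permutation over libraries. Alternatives were DESeq2 1.42.0, limma 3.58.1 on log2(FPKM + 1) and log2(FPKM + 0.1) above a mean of 0.5 FPKM or unfiltered, other scalings, no count filter, a replicate block and leaving out each library. The scripts were tested on simulated data.

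Members and lists were chosen with earlier results of these data known. Members that passed were named, with Gstp1, the member with the highest mean FPKM of each family, and the 5 largest rises and falls among the rest with a mean FPKM of at least 1. Of each pathway list, up to 3 members that passed or otherwise the 2 with the smallest p were to be named. Gsta1, Gsta3, Gsta4, Gstm4, Mgst2, Mgst3, Sult1a1 and Nfe2l2 were added after their values were seen. The promoters to print were also chosen then.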

Additional observations from a re-analysis of the deposited data

How the results depend on the processing

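The number of genes called, 437, and of members called lower, 2, moved with the method, while members called higher stayed at 0 under every planned setting. With library totals in place of TMM 1037 genes and 5 members passed, with no count filter 829 and 4, with DESeq2 1667 and 8, with limma on log2(FPKM + 1) 701 and 5, and on log2(FPKM + 0.1) 709 and 5. These members were all lower. Lower among all genes tested were 76 of 14499, 69 of 21635, 265 of 15756, 69 of 14803 and 61 of 14803, in that order. In the other direction, limma on log2(FPKM + 1) without a filter gave 364 genes (38 of 21635 lower) and 2 members, Gstm1 and Gstm7. Gstm3l did not pass in that limma fit (adjusted p = 0.077). Leaving out each library in turn gave 0 to 3570 genes and 0 to 18 members in edgeR. The fits without 1 HCC library or TAE 1 called 0 or 1 gene at an adjusted p under 0.05, although 1997 to 2243 had an unadjusted p under 0.05. DESeq2, chosen for the same refits after seeing the data, called 842, 985 and 691 genes without HCC 1, 2 and 3 and 753, 4160 and 2126 without TAE 1, 2 and 3, and 4, 3, 5, 4, 10 and 23 members lower in that order. Of those genes 104, 73, 62, 93, 1826 and 926 were lower in the same order, with 15125 to 15988 tested. The replicate block called 0 genes (2984 with an unadjusted p under 0.05) and 0 members. Replicate numbers gave no sign of pairing: deviations of same-numbered samples correlated at 0.1, -0.209 and 0.0335 across genes, and those of other pairs at -0.19 to 0.16. With 3 samples a group, such correlations cannot exclude a paired design. The Gstp1 share differed by 15.6 points with the block (exact sign-flip p = 0.25, the smallest possible), by 12.4 from counts and by 8.38 to 20.8 with a library left out.

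Gstm1, Gstm3l, Gstm7, Gsta5 and Gsta2 stayed negative under every setting run. Leaving out a library turned the sign of 11 of the 35 members tested, of which 0 passed in the fits that turned them: Gsta4 ranged from -1.07 to 0.02, Gstt1 from -0.55 to 0.16, Gsta6 ranged from -0.34 to 0.42 (-0.02 without HCC 1), Gstm5 from -0.14 to 0.42 (-0.08 without HCC 1), Gstp1 from -0.49 to 0.02, Gstk1 from -0.77 to 0.06, Gstz1 from -0.92 to 0.04, Sult2a1 from -1.34 to 0.09, Sult5a1 from -0.49 to 0.24, Gstt3 from -0.60 to 0.00 and Ugt1a6 from -0.44 to 0.00. The cause was not tested. With 3 libraries a group, and TAE libraries that differ widely, members near the threshold cannot be placed firmly on either side of it.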

Other observations

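Some relatives of these enzymes fall outside the symbols used to choose the members, and they were chosen after their values were seen. Alox5ap, the 5-lipoxygenase activating protein, which belongs to the same membrane protein family as the microsomal GSTs, rose in TAE: it was at 5.91, 5.86 and 5.58 FPKM in HCC 1 to 3 and 19.4, 15.4 and 15.7 in TAE 1 to 3 (log2 change 1.49 ± 0.19, edgeR adjusted p = 0.0388). Ltc4s, leukotriene C4 synthase of the same family, had groups that did not overlap in the other direction, with means of 5.69 FPKM in HCC and 1.69 in TAE and a log2 change of -1.74 ± 0.55 (edgeR adjusted p = 0.129). Ptges, Hpgds, Gstcd and Clic1 were also read, and none of them passed in edgeR. Their log2 changes were -0.59, -0.30, -0.10 and 0.43, in that order, with groups that overlapped for all but Clic1.

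A row described as glutathione S-transferase pi 3 under a locus symbol was at 98.9, 135 and 102 FPKM in HCC 1 to 3 and 36.4, 20.4 and 98.9 in TAE 1 to 3 (log2 change -1.07 ± 0.59, edgeR adjusted p = 0.313). In TAE 2, where Gstp1 was highest, this row was lowest. With it added to the sum, the Gstp1 share differed by 15.2 points.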
